A study of Ovis aries with 12 samples.

Results

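The 6 endometrium libraries of this sheep RNA sequencing series, of 12 in all, were compared by fertility. They were chosen by their titles, with 3 libraries labelled high in fertility (T-H) and 3 labelled low (T-L). The other 6 libraries, Co-H and Co-L with 3 each, were labelled ovary in 5 cases and corpus luteum in 1, and entered the fit to share its estimate of the spread. The labels give total RNA from flash-frozen tissue. The sources used here do not give breed, age, stage of the oestrous cycle or pregnancy, nor what T and Co stand for. The series text speaks of pooled samples and of a control and a treatment arm, without saying how animals were pooled or which libraries form an arm. P-values therefore measure only the spread between these libraries.

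The endometrium is the inner lining of the uterus. In sheep it consists of aglandular caruncles, where the placenta attaches, and of glandular areas between them. Its epithelium and glands respond to oestrogen and progesterone, and their secretions feed the conceptus before it attaches. Interferon tau from the conceptus signals pregnancy to this tissue. In whole tissue, fewer cells of a type and less RNA per cell cannot be told apart.

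Genes were identified by cattle identifiers alone, and 0 of the 24616 identifiers matched the sheep gene table used here. Genes are therefore given by identifier, what each encodes is not stated, and marker genes of endometrium, ovary, blood or conceptus were not checked here. Total counts ranged from 9627378 to 13934369 per endometrium library, and 16748 to 17156 genes had at least 1 count. The unit of level is CPM, here counts divided by the TMM-normalized library size (trimmed mean of M values). A total of 14839 genes passed the filter on low counts. One library stood apart from the other 5. The library T-H 1 correlated with them at a Pearson's r of 0.945 to 0.956 across genes on log2 CPM, whereas the other 10 pairs of endometrium libraries gave 0.969 to 0.979. Results that rest on T-H 1 are given with and without it.

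In the fit of all 12 libraries no gene was called different between endometrium of high and low fertility, and for most genes a difference of 2-fold was excluded. Of 14839 genes 0 (0%) were called different between T-H and T-L at an adjusted p under 0.05 (edgeR quasi-likelihood test, Benjamini-Hochberg, smallest adjusted p = 0.356). A difference of 2-fold or more in either direction was excluded for 10343 genes (69.7%), by a pair of one-sided tests from the same fit. A difference of 4-fold or more was excluded for 13598 genes (91.6%). The other 4496 genes were neither called different nor bounded within 2-fold, and of these 1060 had a mean under 1 CPM and 2292 a mean between 1 and 10 CPM.

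The unadjusted edgeR p was under 0.05 for 608 genes (4.10%), where 742 would be 5% of those tested. The estimated differences were small. The median log2 difference, T-H minus T-L, was 0.0055, and the median of its absolute value was 0.15 over all genes and 0.11 over the 9540 genes with a mean of at least 10 CPM. Of these 9540 genes 94.7% had an estimate within 1.5-fold. The 3 T-H libraries lay all above or all below the 3 T-L libraries for 1536 genes (10.4%), with 749 above and 787 below. With 3 libraries a group some genes separate whatever the labels, so this count alone shows no fertility pattern.

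The scatter of estimates widened at low levels. Among the 7997 genes between 10 and 100 CPM the middle 95% of estimates ran from −0.51 to 0.68 on the log2 scale. Among the 4207 genes between 1 and 10 CPM it ran from −1.18 to 1.34, and among the 1092 genes under 1 CPM from −2.07 to 2.17. For the 1543 genes at 100 CPM or more the middle 95% ran from −0.50 to 0.97, and 52 of them had estimates beyond 2-fold.

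**Figure D1:**
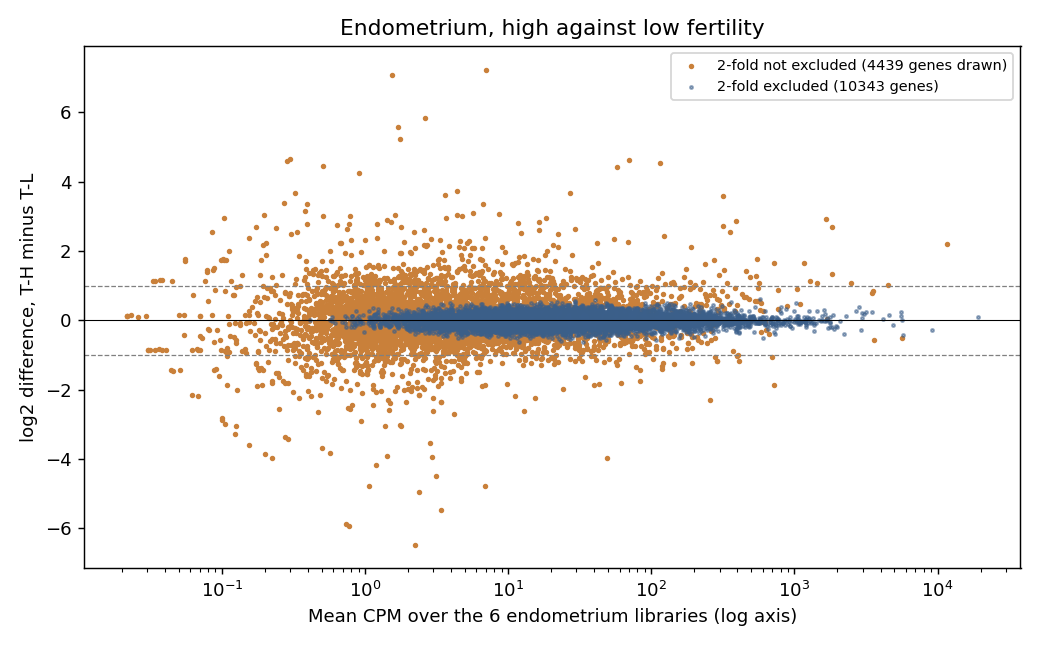
Each point is a gene, with its mean CPM over the 6 endometrium libraries on a log x axis and its log2 difference, T-H minus T-L, on the y axis. Blue points are the 10343 genes for which a 2-fold difference was excluded, orange points are genes for which it was not, and dashed lines mark 2-fold. Blue points form a band around 0 at and above a few CPM, and the orange points spread widest at low levels.

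No gene passed the adjusted threshold, and the 2 of lowest p in either direction are given here, taken from genes with a mean of at least 2 CPM and no overlap of the groups. ENSBTAG00000009841 stood at 180, 250 and 238 CPM in T-L 1 to 3 and at 353, 380 and 467 CPM in T-H 1 to 3. Every T-H library exceeded every T-L library. The group means were 223 ± 37.2 and 400 ± 59.7 CPM (SD, n = 3 each), and the T-H level was 1.80-fold the T-L level, with a 95% interval of 1.42 to 2.26 (edgeR adjusted p = 0.356).

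The T-L 1 to 3 libraries held ENSBTAG00000003632 at 415, 336 and 196 CPM, and it was at 810, 672 and 793 CPM in T-H 1 to 3. The highest T-L library was again below the lowest T-H library, and the T-L libraries spread more than the T-H libraries. The T-H level was 2.40-fold the T-L level, with an interval of 1.68 to 3.44 (edgeR adjusted p = 0.362).

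The genes of the other direction were expressed at a low level. ENSBTAG00000020406 stood at 5.86, 3.67 and 5.36 CPM in T-L 1 to 3 and at 0.887, 1.31 and 0.905 CPM in T-H 1 to 3. These levels rest on 60 to 91 counts per T-L library and 10 to 20 counts per T-H library. The T-L level was 4.73-fold the T-H level, with an interval of 2.70 to 8.29 (edgeR adjusted p = 0.356). In the Co libraries this gene was abundant, at 148 to 333 CPM, and its Co-H and Co-L libraries overlapped.

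ENSBTAG00000008900 had the smallest SD in CPM of the 4 genes in both groups, and also the lowest mean in both. It stood at 3.99, 3.44 and 3.57 CPM in T-L 1 to 3 and at 0.976, 1.05 and 0.830 CPM in T-H 1 to 3. Its T-L level was 3.86-fold the T-H level, with an interval of 2.41 to 6.18 (edgeR adjusted p = 0.356). The Co libraries, at 0.830 to 1.47 CPM, lay near the T-H level in both fertility groups. For each of the 4 genes the interval left out equal levels, but it was not adjusted for the 14839 genes tested and the genes were picked for a small p.

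**Figure D2:**
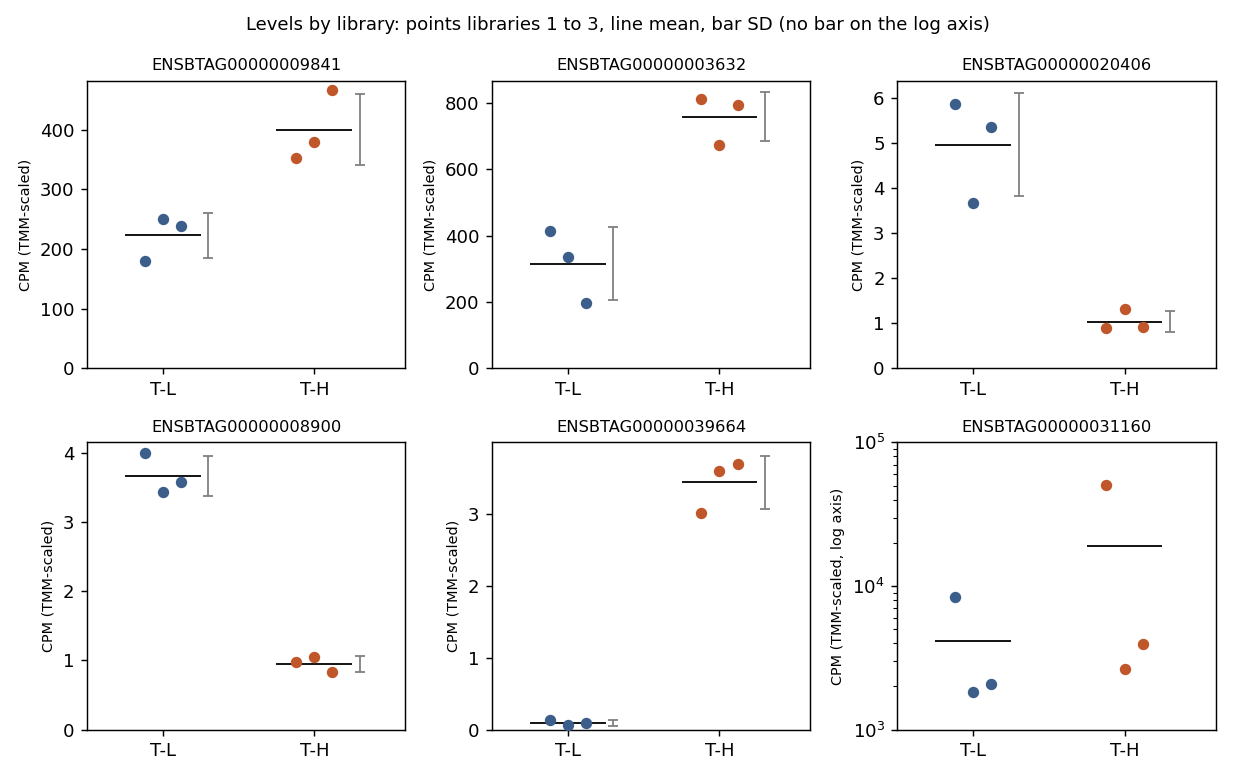
Each panel shows 1 gene, with TMM-scaled CPM on the y axis and T-L (blue) and T-H (orange) on the x axis. Points are libraries 1 to 3 from left to right, the line is the mean and the grey bar the SD (n = 3 each), with no SD bar in the panel on a log axis. In 5 panels the groups do not overlap, and in the panel of ENSBTAG00000031160 the library T-H 1, at 50558 CPM, lies far above the other 5.

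What size of change the libraries exclude depended on the level of the gene. The 95% interval of the log2 difference reached a median of 0.53 to either side of the estimate, or 1.44-fold. For genes between 10 and 100 CPM the median reach was 1.34-fold, and at 100 CPM or more it was 1.31-fold. It was 1.82-fold between 1 and 10 CPM and 2.89-fold under 1 CPM.

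A 2-fold difference was excluded for 88.1% of the genes between 10 and 100 CPM and for 87.4% of those at 100 CPM or more. The share was 45.5% between 1 and 10 CPM and 2.93% under 1 CPM. A 4-fold difference was excluded for 97.9%, 96.3%, 87.8% and 54.2% of the genes in the same order. For abundant genes a 4-fold change was thus nearly always excluded, and for genes under 1 CPM it was excluded in little more than every other gene.

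Smaller changes were bounded less securely. A 1.5-fold difference was excluded for 5033 genes (33.9%) and a 1.4-fold difference for 0 genes, since no equivalence p was small enough after adjustment. The unadjusted 95% interval lay within 1.4-fold for 3872 genes and within 1.5-fold for 5757. The count at 1.5-fold was 1813 to 3285 when any single endometrium library was left out, lowest without T-H 2 and highest without T-H 1. The count at 2-fold was then 9220 to 9871.

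A difference standing alone among these genes would have needed 3.03-fold to pass the adjusted threshold at the median error of genes between 10 and 100 CPM. At 100 CPM or more it would have needed 2.83-fold, between 1 and 10 CPM 9.88-fold and under 1 CPM 60.3-fold. With the 6 endometrium libraries fitted alone the needed differences were larger, at 3.99-fold, 3.10-fold, 20.5-fold and 85.8-fold in the same order of levels. Changes of 1.5-fold to 2-fold, in abundant genes too, could be present without being called.

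**Figure D3:**
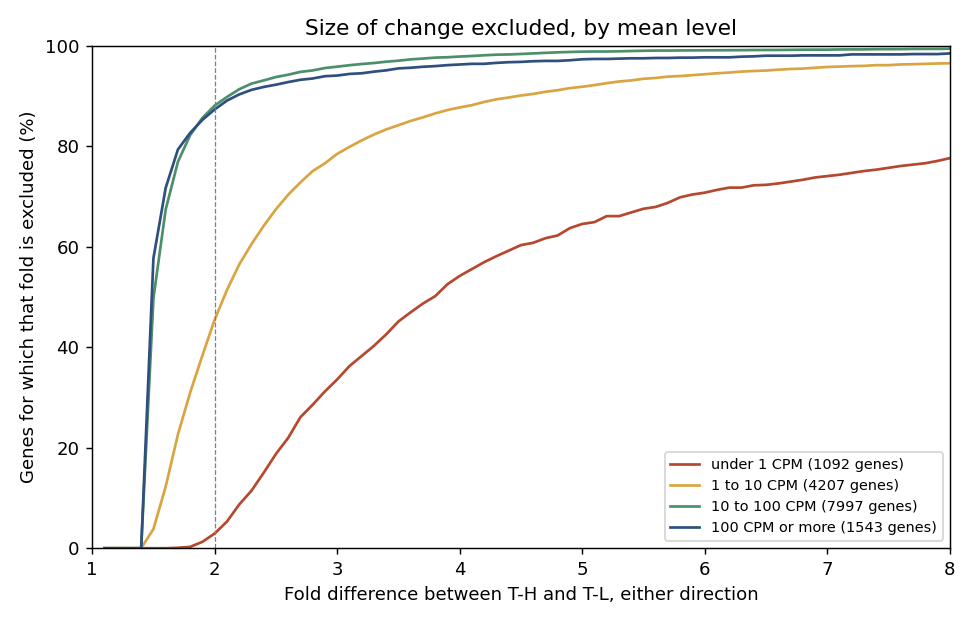
The x axis gives a fold difference between T-H and T-L in either direction, and the y axis the percentage of genes for which that fold was excluded at an adjusted p under 0.05. Each line is a class of mean level over the 6 endometrium libraries. Both classes above 10 CPM rise past 87% at 2-fold (dashed line), and genes under 1 CPM reach 54.2% at 4-fold.

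The exclusion of a fold is computed from the spread between libraries, so genes left unbounded vary more by construction. Among genes of at least 10 CPM a 2-fold difference was excluded for 8396 and not excluded for 1144. The median SD of log2 CPM within the endometrium groups was 0.163 in the former and 0.489 in the latter. The median SD within the Co groups was 0.236 and 0.646, and the Co libraries entered the same estimate of error. With the 6 endometrium libraries fitted alone, 401 of the 1144 genes were bounded within 2-fold and 743 were not.

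In that fit of endometrium alone, 14110 genes passed the filter. A 2-fold difference was excluded for 11206 of them (79.4%), the median reach of the interval was 1.35-fold, and the unadjusted p was under 0.05 for 733 genes, where 706 would be 5%. Over genes of at least 10 CPM the median SD was 0.176 within the endometrium groups and 0.253 within the Co groups. Fitted alone, the 6 Co libraries had a median reach of 1.48-fold, and a 2-fold difference between Co-H and Co-L was excluded for 57.2% of 13502 genes. The endometrium groups thus varied less between libraries than the Co groups, which was not tested as a difference. The difference between the fertility contrasts of the tissues was called for 0 of 14839 genes in edgeR (0%, smallest adjusted p = 0.257). Its unadjusted edgeR p was under 0.05 for 2423 genes (16.3%), where 742 would be 5%, so the count of 0 does not show equal contrasts. In the same fit the unadjusted p of Co-H against Co-L was under 0.05 for 4272 genes (28.8%), with 709 called. For T-H against T-L it was under 0.05 for 608 (4.10%), with 0 called. Other settings called more genes for the difference between the contrasts. The counts were 135 of 14839 in DESeq2, 1675 of 14839 in limma-voom and 1237 of 15181 in edgeR with Co-H 1 left out.

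The most abundant genes show how far a level can be bounded. ENSBTAG00000043561, the gene with the highest mean, stood at 19853, 18737 and 17310 CPM in T-L 1 to 3 and at 22755, 16099 and 20202 CPM in T-H 1 to 3. The groups overlapped. The T-H level was 1.06-fold the T-L level, with an interval of 0.761 to 1.47, and a 2-fold difference was excluded (edgeR equivalence adjusted p = 0.00163). That bound depended on the fit. In the newer quasi-likelihood fit of edgeR, used below, the log2 interval was −1.19 to 1.35 and reached past 2-fold. In DESeq2, limma-voom and the fit of endometrium alone it stayed within 2-fold.

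ENSBTAG00000021466, the third in mean level, stood at 12278, 8035 and 10074 CPM in T-L 1 to 3 and at 5996, 10535 and 8368 CPM in T-H 1 to 3. The T-H level was 0.819-fold the T-L level, with an interval of 0.525 to 1.28. The highest T-H library lay above 2 of the T-L libraries, and a 2-fold difference was excluded (edgeR equivalence adjusted p = 0.0254). In the newer edgeR fit the log2 interval was −1.06 to 0.49 and reached just past 2-fold. It stayed within 2-fold in DESeq2, limma-voom and the fit of endometrium alone.

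ENSBTAG00000031160, the second in mean level, could not be bounded. It stood at 8441, 1837 and 2064 CPM in T-L 1 to 3 and at 50558, 2644 and 3977 CPM in T-H 1 to 3. The T-H mean rested on T-H 1, and T-L 1 lay above T-H 2 and T-H 3. The T-H level was 4.63-fold the T-L level, with an interval of 0.908 to 23.6 (edgeR adjusted p = 1). Without T-H 1 the log2 difference was −0.31, with an interval of −2.19 to 1.57.

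Among well expressed genes, the larger estimates on the T-H side went with the library T-H 1. An estimate beyond 2-fold was found for 190 of the 9540 genes of at least 10 CPM, with 136 on the T-H side and 54 on the T-L side. The groups overlapped for 127 of these 190. T-H 1 was the library farthest from the median of the other 5 for 112 of the 136 genes on the T-H side and for 5 of the 54 on the T-L side. Without T-H 1 the number beyond 2-fold was 124, and 70 of the 190 genes remained beyond 2-fold in the same direction.

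T-H 1 exceeded each of the other 5 libraries by more than 4-fold for 107 genes of at least 10 CPM in it. In every other endometrium library that number was between 0 and 5. The 107 genes took 7.47% of the counts of T-H 1 (95% Wilson interval 7.45 to 7.48, counting error only). Most of that share was the single gene ENSBTAG00000031160, with 5.20% (5.18 to 5.21), and the other 106 genes took 2.27% (2.26 to 2.28). Among genes of at least 10 CPM, the SD of log2 CPM within T-H exceeded 1 for 218 genes, against 111 within T-L. Between T-H 2 and T-H 3 alone it exceeded 1 for 75 genes, but an SD of 2 libraries is not directly comparable with an SD of 3. The median SD over these genes was 0.160 in T-H and 0.161 in T-L.

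The comparison without T-H 1 called 0 of 15135 genes (edgeR, smallest adjusted p = 0.687), with an unadjusted p under 0.05 for 387 genes. Fitted on the other 5 endometrium libraries alone, 0 of 14390 genes were called (edgeR, smallest adjusted p = 0.175), with an unadjusted p under 0.05 for 630 genes. A 2-fold difference was then excluded for 11217 genes (78.0%). Both counts of calls were thus 0 with that library left out.

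**Figure D4:**
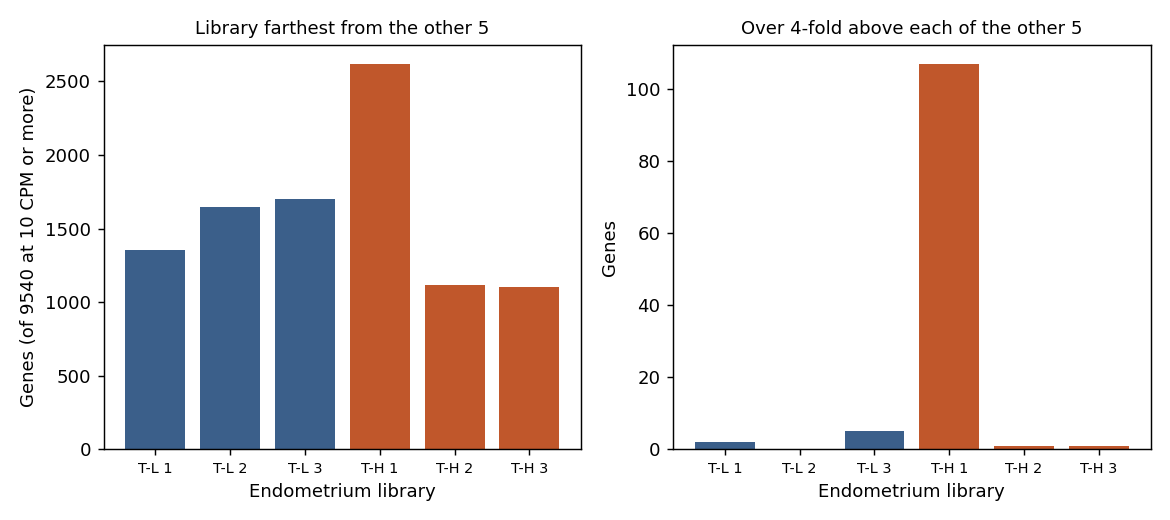
Bars give, for each endometrium library, the number of genes of at least 10 CPM for which it lay farthest from the median of the other 5 (left) and the number for which it exceeded each of the other 5 by more than 4-fold (right). T-L libraries are blue and T-H libraries orange. T-H 1 has the tallest bar in both panels, with 2618 of 9540 genes on the left and 107 genes on the right.

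A few genes were on in some endometrium libraries and off in the others. For 14 genes every endometrium library had either at least 30 counts or at most 3 counts, with both states present. The split followed fertility for 3 of the 14, which were chosen after their values were seen. The rule itself required many counts in some libraries and few in the others. The ratios, counting intervals and p-values given below for these genes therefore describe the genes picked and test nothing. None of the 3 was called in the fit of all 12 libraries.

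ENSBTAG00000039664 had 2, 1 and 1 counts in T-L 1 to 3 and 34, 55 and 49 counts in T-H 1 to 3. Over the groups this was 4 against 138 counts, a ratio of 38.0 with a 95% counting interval of 14.5 to 141 (Clopper-Pearson, counting error only). The T-H libraries lay close together, at 3.02, 3.60 and 3.70 CPM. In Co the gene had 38 and 55 counts in Co-H 1 and Co-H 2, 1 count in Co-H 3, and 4, 0 and 1 counts in Co-L 1 to 3. Its adjusted p for T-H against T-L was 0.619 in edgeR over all 12 libraries. It was 0.0491 in edgeR over the 6 endometrium libraries alone, the single gene called there (0.00709% of 14110). In that fit the gene passed the filter on low counts only through the T-H libraries, where it is high, so this p is not separate support.

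ENSBTAG00000016121 showed the opposite order, with 83, 53 and 53 counts in T-L 1 to 3 and 0, 2 and 0 counts in T-H 1 to 3. The ratio over the groups was 85.8, with a counting interval of 23.4 to 713. It had 0 counts in all 6 Co libraries, so it passed the filter on low counts only through the T-L libraries. A count of 0 in T-H 1 allows up to 0.274 CPM of the library total. Its adjusted p was 0.356 in edgeR over all 12 libraries and 0.215 over the 6 endometrium libraries.

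ENSBTAG00000021306 had 126, 43 and 37 counts in T-L 1 to 3 and 1, 3 and 2 counts in T-H 1 to 3. The ratio over the groups was 31.2, with a counting interval of 14.1 to 85.9. In Co it had 3, 24 and 58 counts in Co-L 1 to 3 and 1, 0 and 5 counts in Co-H 1 to 3. Its adjusted p was 0.845 in edgeR over all 12 libraries and 0.215 over the 6 endometrium libraries. In the latter fit the gene passed the filter on low counts only through the T-L libraries, where it is high.

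Other tests called few genes. DESeq2 called 27 of the 14839 genes (0.182%), of which 9 rose and 18 fell in T-H against T-L. T-H and T-L were fully separated for 25 of the 27, against 1536 (10.4%) of all 14839 genes. The 27 were picked by a low p in the same libraries, which favours separation, so this count is no support for the calls. The mean was under 10 CPM for 16 of the 27, and DESeq2 without T-H 1 called 11 of the 27. All 4 genes of lowest edgeR p named above were among the 27, with DESeq2 adjusted p between 4.6e-05 and 0.00218. The 3 on and off genes had DESeq2 adjusted p of 0.0121, 0.00075 and 0.0146 in the order given. The rule that picked these 3 genes favours a low p, so these values are no support either.

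Limma-voom with sample quality weights called 3 genes (0.0202%), all lower in T-H. They were ENSBTAG00000008900, ENSBTAG00000016121 and ENSBTAG00000010875, and the last stood at 222, 226 and 234 CPM in T-L 1 to 3 against 116, 148 and 122 CPM in T-H 1 to 3. Its log2 difference was −0.81 (SE 0.11, limma adjusted p = 0.0474), and −0.82 in edgeR (SE 0.15, adjusted p = 0.362). Its Co libraries lay between 1.84 and 4.31 CPM.

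The newer quasi-likelihood fit in edgeR called 2 genes (0.0135%), ENSBTAG00000016121 and ENSBTAG00000005714 (adjusted p = 0.0379 and 0.00917). The latter had 54, 26 and 13 counts in T-L 1 to 3 and 1, 2 and 0 counts in T-H 1 to 3. Its ratio over the groups was 28.1, with a counting interval of 9.33 to 139, and its Co libraries had 0 to 2 counts each. It passed the filter on low counts only through the T-L libraries, where it is high, so these values describe a gene picked and are not separate support. ENSBTAG00000016121 was called by DESeq2, limma-voom and the newer edgeR fit, but not in the fit of endometrium alone. As said above, this gene was picked by the on and off rule and passed the filter only through the T-L libraries. These calls are therefore not separate support. DESeq2 also called ENSBTAG00000008900 and ENSBTAG00000010875 of limma-voom, ENSBTAG00000005714 of the newer edgeR fit and ENSBTAG00000039664 of the endometrium fit. No gene was called in all of these settings. They share the same libraries, and each of the genes they named was chosen for its low p in these libraries.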

How the data were processed

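Per the file headers, the values deposited by the authors are raw counts on cattle gene identifiers, 1 file a library. Bowtie 0.12.2 and, for the endometrium libraries, build bosTau8 come from the submitters' processing notes. The sources used here do not name the counting tool, annotation, strand setting or filters. Sheep reads assigned to cattle genes may undercount diverged genes, which was not tested. For T-H 3 the header and first gene share a line, which was split. The 20 gene lists prepared by symbol could not be applied.

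The analysis used edgeR 4.0.16 (R 4.3.3): filterByExpr (minimum count 10), TMM, 1 mean per group over all 12 libraries, the quasi-likelihood test and Benjamini-Hochberg adjustment. Intervals and equivalence tests used the unshrunk coefficient, its quasi-likelihood standard error and the t distribution. The test and its intervals were tested on simulated data. The simulated counts gave a gene the same dispersion in every library. They thus do not cover a library that stands apart, as T-H 1 does, or a larger spread in Co. Alternatives included DESeq2 1.42.0 and limma 3.58.1. Named genes were the 2 in each direction with the smallest p (mean of at least 2 CPM, groups not overlapping) and the 3 most abundant. Replicate counts differed beyond sampling noise (chi-square per degree of freedom 23.1 to 135), so each library counted once. The comparison, lists and rules were chosen with earlier results of these data known.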

Additional observations from a re-analysis of the deposited data

How the results depend on the processing

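The count of 0 genes called between T-H and T-L held under RLE or upper-quartile scaling, without a count filter, with a filter of 1 CPM in 3 libraries and with each of the 12 libraries left out (0 to 0). It was 27 with DESeq2, 3 with limma-voom, 2 with the newer edgeR fit and 1 with only the 6 endometrium libraries; the cause was not tested. The number of genes with 2-fold excluded was 10343, and 9220 to 10621 with 1 library left out, against 5033 at 1.5-fold. The difference between tissues, 0 genes, was 135 with DESeq2, 1675 with limma-voom and 0 to 1237 with 1 library left out, the highest without Co-H 1. The replicate number as a block also called 0 genes, over 12 libraries or the 6 endometrium libraries, and left 10322 and 10822 genes with 2-fold excluded. Same-numbered T-L and T-H libraries correlated at −0.287 to −0.0199 in their deviations across genes, and 0 of 6 correlated best with their own number, so those numbers were not taken as pairs. Same-numbered libraries reached 0.213, 0.0194 and 0.249 between Co-L and Co-H. Between Co-L and T-L they reached 0.0720, 0.0924 and 0.138, and there every library correlated best with its own number. Between Co-H and T-H they gave 0.00484, −0.0853 and −0.0495, and no library correlated best with its own number. The pattern of Co-L and T-L is a hint from the data and not the design, and Co-H and T-H did not share it. The estimates of 2 abundant genes turned without T-H 1: ENSBTAG00000031160 to −0.31 and ENSBTAG00000043561 to −0.038 (highest with another library left out 3.25 and 0.18), with −0.31 and −0.039 when only endometrium was fitted, an alternative added with the data in view. With 3 libraries a group, genes under 10 CPM were the least bounded.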
